A study of Rattus norvegicus with 6 samples.

Results

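The genes described here make, store and release glucose in the liver. They are 9 genes: G6pc1, Pck1, Fbp1, Pklr, Slc2a2, Gys2, Ppp1r3b, Ppp1r3c and Pygl. They were chosen by name, and their probes are the array's non-control probes whose RefSeq accession belongs to 1 of them. That rule found 10 probes for all 9 genes, 2 of them for G6pc1, out of 30367 probes and 15443 named genes on the array. Expression was measured in the livers of 3 rats made fibrotic by bile duct ligation, surgery that stops bile from draining, and of 3 normal rats, with 1 array of total RNA per animal. Strain, age, sex, time after the operation, feeding state, and whether the normal rats had a sham operation are not given in the sources used here. The comparison asks how fibrotic liver differed from normal liver.

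Between meals the liver releases glucose, which it builds from lactate, amino acids and glycerol (gluconeogenesis) or frees from stored glycogen. Phosphoenolpyruvate carboxykinase (Pck1) and fructose-1,6-bisphosphatase (Fbp1) catalyse gluconeogenic steps that bypass irreversible reactions of glycolysis, and glucose-6-phosphatase (G6pc1) makes the free glucose that ends both routes. After a meal, pyruvate kinase of liver (Pklr) runs glycolysis and glycogen synthase (Gys2) stores glucose. Glucagon raises and insulin lowers transcription of Pck1 and G6pc1 in liver.

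Values are log2 signals of a probe minus the 75th percentile of its array, called levels here, and differences are fibrosis minus normal. The 75th percentile of the signal was 4840 to 6401 on the fibrosis arrays and 3755 to 4386 on the normal arrays, and 68.8% to 78.0% of spots were well above background in fibrosis and 67.2% to 70.0% in normal liver. A probe was called when its limma adjusted p, taken over all 19731 probes tested, was under 0.05. Of all these 19.1% were called, 12.4% higher and 6.79% lower in fibrosis, and the median difference was -0.10. How many were called lower depended on the scaling of the arrays: of all called probes 35.4% were lower here, against 67.3% with the array median and 11.4% with scaling to E1A control probes, where the median differences were -0.45 and 0.21. All 6 arrays lay on 1 slide. Fibrosis array 1 shared the first row of the slide with the normal arrays, and fibrosis arrays 2 and 3 lay in the second row.

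Of the 9 genes, 8 were measured above background and tested, and 3 of these fell: G6pc1, Ppp1r3c and Pklr. None rose. With the brighter probe standing for G6pc1, all 8 had a negative difference, between -1.73 (Ppp1r3c) and -0.36 (Pck1), with a median of -0.69 beside -0.07 over the 10864 genes tested. In 7 of the 8 the 2 groups stood apart without overlap, where 38.4% of all tested probes had groups that did not overlap. The share called lower, 3 of 8, stands against 828 of the 10864 genes and 6.79% of all probes. The 8 genes were not drawn at random and were chosen with earlier results of these data known. In bulk tissue fewer hepatocytes and less RNA per hepatocyte cannot be told apart.

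**Figure D1:**
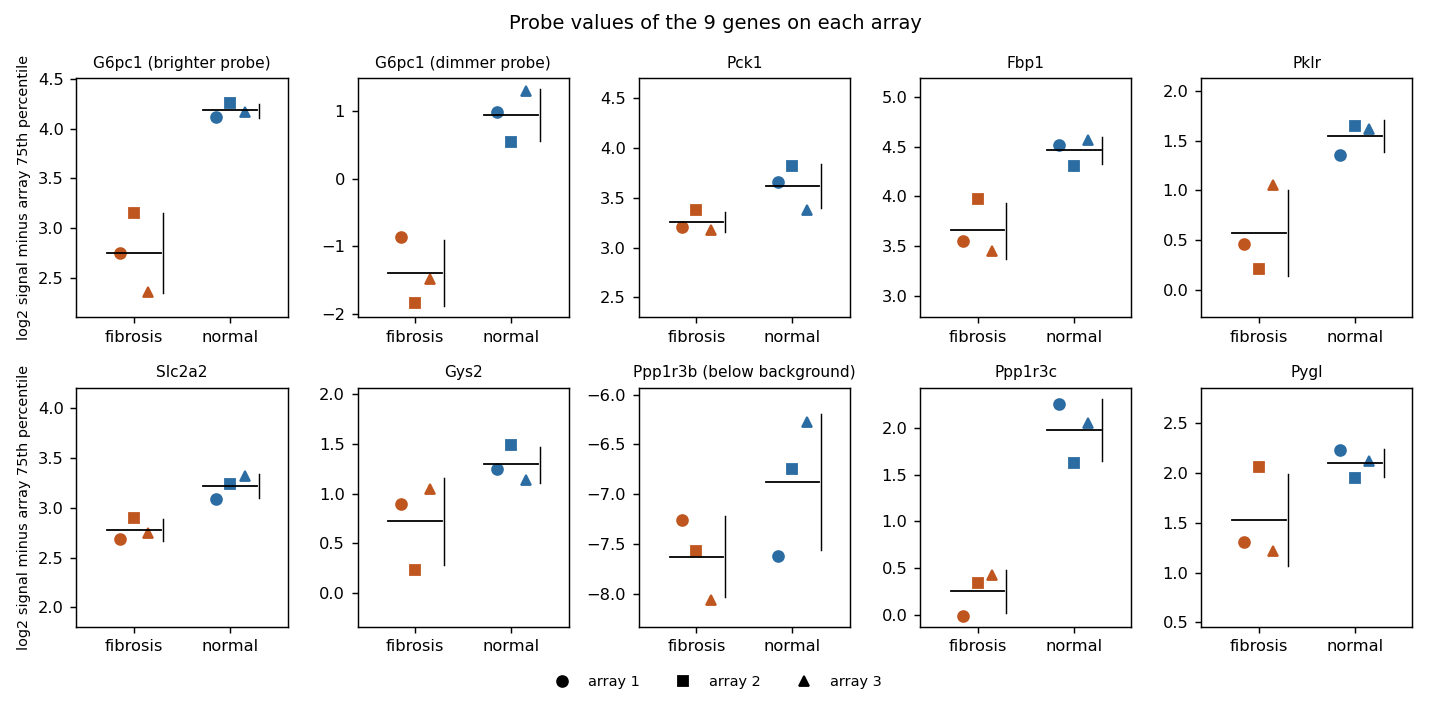
Level of each of the 10 probes (log2 signal minus the array's 75th percentile, vertical axis) on the 3 fibrosis arrays (orange, left) and the 3 normal arrays (blue, right). Marker shapes are the arrays, horizontal lines the group means and the thin vertical lines beside them 1 SD; each panel has its own range of at least 2.4 log2 units. G6pc1 and Ppp1r3c have the widest gaps between the groups, and no array measured Ppp1r3b well above background.

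Glucose-6-phosphatase fell on both of its probes. The sequences shown first are the 250 bases before the start sites of G6pc1 and Pck1, since these 2 enzymes share hormonal control and of them only G6pc1 was called. They are from RefSeq on build GRCr8, each read 5′ to 3′ on its gene's strand (+ for both), at chr10:86807409-86807658 for G6pc1 and chr3:182348322-182348571 for Pck1, and lie outside the transcribed gene. Capitals mark the matches found among 9 motifs searched on both strands from 250 bases before to 50 after the start.

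G6pc1: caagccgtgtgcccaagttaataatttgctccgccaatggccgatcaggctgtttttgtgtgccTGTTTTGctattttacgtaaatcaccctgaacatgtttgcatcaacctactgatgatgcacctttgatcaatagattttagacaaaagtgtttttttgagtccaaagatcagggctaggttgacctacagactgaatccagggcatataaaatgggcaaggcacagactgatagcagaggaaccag

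Pck1: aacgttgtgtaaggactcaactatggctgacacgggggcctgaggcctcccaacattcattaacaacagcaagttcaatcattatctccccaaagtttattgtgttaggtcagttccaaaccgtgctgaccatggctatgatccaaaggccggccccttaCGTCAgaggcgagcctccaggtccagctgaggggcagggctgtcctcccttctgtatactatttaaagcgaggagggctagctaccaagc

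The capitals in G6pc1 are CAAAACA, a motif of insulin response elements, on the opposite strand, at positions -186 to -180 from the start. It occurs in 6.28% of the 33469 RefSeq promoters of this length. Those in Pck1 are TGACG, the short core of the cAMP response element, on the opposite strand, at -90 to -86, and 21.2% of promoters hold it. The full element TGACGTCA, which contains that core (1.83% of promoters), and the FOXO and FOXA core TGTTTAC (3.78%) were in neither window. A match describes the letters only.

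The brighter G6pc1 probe had levels of 2.75, 3.15 and 2.36 on fibrosis arrays 1 to 3, against 4.12, 4.26 and 4.17 on the normal arrays. Every fibrotic liver lay below every normal one, with a gap of 0.97, and the fibrotic livers were spread more widely (SD 0.40) than the normal ones (SD 0.07, n = 3 each). The difference was -1.43 ± 0.27 (SE, 95% interval -2.05 to -0.81, limma adjusted p = 0.00796), or 2.69-fold lower.

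The dimmer probe had levels of -0.87, -1.84 and -1.48 in fibrosis, against 0.98, 0.54 and 1.29 in normal liver. Its difference was -2.33 ± 0.33 (SE, limma adjusted p = 0.00211), or 5.03-fold lower, further than the brighter probe, whose interval overlaps the dimmer one's (-3.09 to -1.58). Both calls were lost with the row of the slide as a block, which leaves fibrosis array 1 alone to set against the normal arrays (brighter probe -1.43, adjusted p = 0.0995; dimmer probe -1.81, adjusted p = 0.0518). All 12 spots of the brighter probe and 8 of 12 of the dimmer one were marked by the scanner software (as non-uniform or as outliers among repeated spots), and neither probe could be tested once marked spots were left out.

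Pck1, the other enzyme under the same hormones, did not pass the test. Its levels were 3.21, 3.38 and 3.18 in fibrosis, against 3.66, 3.82 and 3.38 in normal liver. The groups came within 0.0079 of touching. The difference was -0.36 ± 0.24 (SE, 95% interval -0.90 to 0.18, limma adjusted p = 0.334), so the interval reaches from 0.535 to 1.13 times normal. The sign depended on the scaling: it was 0.04 with quantile normalization and 0.10 with cyclic loess.

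Before any scaling, Pck1 signals were 59500, 50200 and 46600 in fibrosis, against 49400, 62000 and 39400 in normal liver, and the groups overlapped. G6pc1 signals of the brighter probe were 43500, 43100 and 26300 in fibrosis, against 68200, 84000 and 67800 in normal liver, and did not. All 12 spots of the Pck1 probe were marked too.

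The change of G6pc1 relative to Pck1 on the same array does not depend on any factor that scales a whole array. The brighter G6pc1 probe minus the Pck1 probe was -0.46, -0.22 and -0.82 in fibrosis, against 0.46, 0.44 and 0.79 in normal liver. The means were -0.50 ± 0.30 in fibrosis and 0.56 ± 0.20 in normal liver (SD, n = 3 each), without overlap. The difference was -1.07. This contrast was formed after the values of both genes had been seen and uses 1 of the 2 G6pc1 probes, so it is a description with no test.

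Fbp1 was among the brightest of these probes and did not pass by a narrow margin. Its levels were 3.55, 3.97 and 3.45 in fibrosis, against 4.52, 4.30 and 4.57 in normal liver, with every fibrotic liver below every normal one. The difference was -0.81 ± 0.25 (SE, 95% interval -1.38 to -0.24, limma adjusted p = 0.0547). It was called in 8 of 21 alternatives, among them without fibrosis array 2, the highest of the 3 (-0.97, adjusted p = 0.0315), with the array median (-1.17, 0.0132), with normexp background correction (-0.88, 0.0239) and when marked spots were left out (-0.88, 0.0364). Under quantile (-0.29), loess (-0.28) and E1A scaling (-0.50) it was smaller and not called.

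Pklr, which runs the opposite way in glycolysis, also fell, with a call that many settings ended. Levels were 0.46, 0.21 and 1.05 in fibrosis, against 1.36, 1.65 and 1.62 in normal liver, again without overlap. The difference was -0.97 ± 0.28 (SE, limma adjusted p = 0.0466), or 1.96-fold lower. The call was lost without fibrosis array 1 or 2 or any 1 of the normal arrays (-1.06 to -0.79, adjusted p from 0.0881 to 0.170), with quantile normalization (-0.80, 0.0918), cyclic loess (-0.76, 0.116) and E1A scaling (-0.66, 0.322), with no filter on dim probes (0.0964) and with the slide row as a block (-1.08, 0.216).

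Slc2a2, the glucose transporter GLUT2 of the hepatocyte surface, did not pass. It had levels of 2.69, 2.90 and 2.75 in fibrosis, against 3.09, 3.24 and 3.32 in normal liver. The groups did not overlap and were tight (SD 0.11 in fibrosis and 0.12 in normal liver). The difference was small, -0.44 ± 0.22 (SE, 95% interval -0.95 to 0.08, limma adjusted p = 0.221), and was called with the array median (-0.79, 0.0393) and with array weights (-0.53, 0.0344).

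Ppp1r3c, known as PTG, fell in fibrotic liver. It is a scaffold that brings protein phosphatase 1 to glycogen, where the phosphatase switches glycogen synthase on and phosphorylase off. Its levels were -0.01, 0.34 and 0.43 in fibrosis, against 2.26, 1.62 and 2.05 in normal liver. The gap between the groups, 1.2, was larger than the whole range within either group. The difference was -1.73 ± 0.27 (SE, 95% interval -2.34 to -1.11, limma adjusted p = 0.00331), or 3.31-fold lower, and larger in size than 90.9% of the differences of all tested probes. It was called in every alternative run, at -2.08 to -0.98, and none of its 12 spots was marked.

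The 250 bases before its start site are shown because it was the only one of the 8 tested genes called in all 21 alternatives. They are at chr1:243878528-243878777 on GRCr8 (RefSeq), minus strand, with the 1 match in capitals, an E-box (CACGTG) at -54 to -49 that 6.42% of promoters hold.

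Ppp1r3c: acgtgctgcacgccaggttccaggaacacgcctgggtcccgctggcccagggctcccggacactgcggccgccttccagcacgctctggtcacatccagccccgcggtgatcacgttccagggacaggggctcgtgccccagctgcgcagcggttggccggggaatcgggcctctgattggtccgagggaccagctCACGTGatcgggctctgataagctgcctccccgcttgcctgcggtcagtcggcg

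This window is richer in G and C (69.2%) than those of G6pc1 (43.2%) and Pck1 (52.0%). Across the 8 of the 9 genes with a promoter in the RefSeq table, each of 4 motifs matched 1 promoter and the other 5 motifs matched none. Slc2a2 held TGTTCT, the short core of glucocorticoid response elements, at -153 to -148, as 20.7% of promoters do, and Fbp1, Pklr, Gys2 and Pygl held no match. The motifs without a match also included the C/EBP palindrome TTGCNNAA (10.6% of promoters), the HNF4A core CAAAGTCCA (0.391%) and the HNF1 palindrome (0.00299%). The HNF4A and HNF1 patterns are so rare that no match was likely for any 8 promoters. Their absence does not show that sites with other letters are lacking.

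Ppp1r3b encodes the liver's other main glycogen-targeting subunit of the same phosphatase. Its 1 probe did not count as well above background on any of the 6 arrays, with signals of 41.8, 26.4 and 19.1 in fibrosis, against 19.8, 41.1 and 48.7 in normal liver. It was not tested, and no fold is given.

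The enzymes that build and break glycogen had smaller differences than Ppp1r3c and did not pass. Gys2, the liver glycogen synthase, had levels of 0.89, 0.23 and 1.05 in fibrosis, against 1.25, 1.49 and 1.14 in normal liver, and fibrosis array 2 lay well below the other two. Its difference was -0.57 ± 0.29 (SE, 95% interval -1.23 to 0.09, limma adjusted p = 0.214).

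Pygl, the liver glycogen phosphorylase, had levels of 1.31, 2.06 and 1.22 in fibrosis, against 2.23, 1.95 and 2.12 in normal liver. Its groups overlapped, fibrosis array 2 lying above normal array 2. Its difference was also -0.57 ± 0.29 (SE, 95% interval -1.23 to 0.09, limma adjusted p = 0.217), and it was called without fibrosis array 2 (-0.83, 0.0484) and with array weights (-0.69, 0.0225). Both genes were called with the array median (-0.92 for each, adjusted p of 0.0461 for Gys2 and 0.0464 for Pygl).

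Fibrotic livers differed among themselves gene by gene. Within the fibrosis group, array 2 was the highest for 5 of the 8 tested genes, array 3 for 3 and array 1 for 0. Array 2 was at the same time the lowest for 2 genes, Pklr and Gys2. The SD was larger in fibrosis than in normal liver for 5 of the 8, and the median SD over all tested probes was 0.424 in fibrosis and 0.228 in normal liver.

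Markers of hepatocytes and of other liver cells were read beside these genes. All 11 hepatocyte markers tested had negative differences, none of them called, with a median of -0.71, close to the -0.69 of the 8 glucose genes. Their summed level, as multiples of each array's 75th percentile, ran from 109 to 145 in fibrosis and from 181 to 200 in normal liver. All 7 cholangiocyte (bile duct cell) markers tested were called higher, their sum running from 8.58 to 9.96 in fibrosis and from 0.513 to 0.714 in normal liver. Of 8 stellate cell and myofibroblast markers 5 were called higher, with sums of 13.7 to 30.6 in fibrosis and 5.84 to 9.20 in normal liver.

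For the remaining cell types the counts were small. Of 7 macrophage markers 1 was called lower and none higher, with sums of 13.8 to 20.4 in fibrosis and 12.4 to 16.4 in normal liver. None of 4 endothelial markers was called, with sums of 7.14 to 10.3 in fibrosis and 11.5 to 12.5 in normal liver. Of 5 lymphocyte markers 1 was called lower and none higher, with sums of 2.27 to 2.73 in fibrosis and 1.13 to 2.02 in normal liver. None of 3 muscle markers was called (Acta1 at 0.95, Ckm at -0.36 and Mb at -0.46), with sums of 0.287 to 0.415 in fibrosis and 0.145 to 0.232 in normal liver. No fat marker was tested. The part of any of these cells in the differences described here was not tested.

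Gluconeogenesis is known to be strongest in hepatocytes around the portal tract, so markers of both zones were read. Periportal markers (3 of 8 lower, 0 higher, median -0.56) summed to 35.3 to 43.7 in fibrosis and 52.1 to 68.1 in normal liver. Pericentral markers (4 of 8 lower, 0 higher, median -0.62) summed to 15.8 to 18.4 in fibrosis and 29.8 to 36.6 in normal liver. Both sums were below normal on every fibrosis array, while 2 of the 8 markers of each zone had positive differences.

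Set against the mean of the 11 hepatocyte markers on each array, 4 of the 8 genes had negative differences and 4 had positive ones. This scaling was chosen after seeing the data, and it moved the median of all probes to 0.65. Ppp1r3c was at -2.57, -2.37 and -1.91 in fibrosis on that scale, against -0.89, -1.76 and -1.25 in normal liver, and stayed called at -0.98 ± 0.33 (SE, limma adjusted p = 0.0450). The dimmer G6pc1 probe stayed called at -1.58 ± 0.37 (0.0101), and the brighter one was not called at -0.68 ± 0.26 (0.0747), though its groups did not overlap.

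None of the other 6 genes was called on that scale. Fbp1 was at -0.06 (95% interval -0.67 to 0.55) and Pklr at -0.22 (-0.99 to 0.54). Pck1 was at 0.38 (-0.22 to 0.99), Slc2a2 at 0.31 (-0.27 to 0.89), Gys2 at 0.18 (-0.60 to 0.96) and Pygl at 0.18 (-0.48 to 0.84). For Pck1 and Slc2a2 the groups did not overlap either, with every fibrosis array above every normal one on that scale. The share of all probes without overlap on it is not given here. The median difference of all probes on that scale, 0.65, lay above those of Pck1 and Slc2a2. Whether the markers themselves were expressed less per hepatocyte was not tested.

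**Figure D2:**
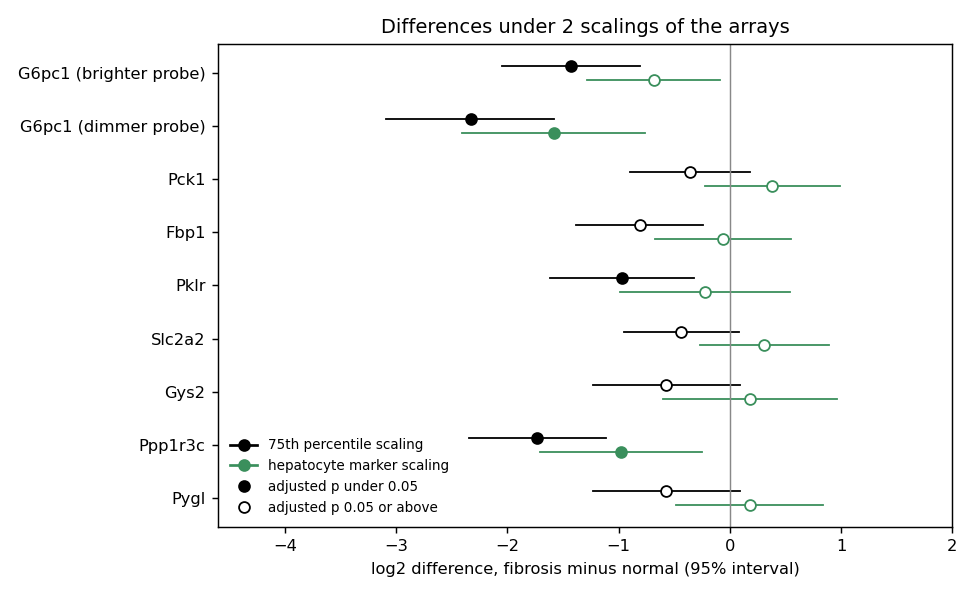
Log2 difference, fibrosis minus normal, with its 95% interval (horizontal axis) for the 9 tested probes of 8 genes, with arrays scaled to their 75th percentile (black) or to 11 hepatocyte markers (green); filled points have an adjusted p under 0.05. Ppp1r3c and the dimmer G6pc1 probe are filled under both scalings, while Pck1, Slc2a2, Gys2 and Pygl lie at positive values under the second.

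The other genes of these pathways were read from 5 lists. Of 101 genes listed, 92 were tested, of which 10 rose and 20 fell, with a median of -0.49. That compares with 12.4% of all probes called higher and 6.79% called lower. The count of falls lay between 4 and 28 when 1 array was left out (4 without normal array 2 or 3, 8 without normal array 1, 9 without fibrosis array 1).

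In gluconeogenesis and the steps it shares with glycolysis, 2 of 23 genes rose and 3 fell, with a median of -0.44. Pck2, the mitochondrial form of phosphoenolpyruvate carboxykinase, had levels of 0.90, 1.12 and 1.30 in fibrosis, against -0.10, -0.31 and -0.22 in normal liver. It rose by 1.32 ± 0.23 (SE, limma adjusted p = 0.00604), while the cytosolic Pck1 described above did not pass. Ldhb, the lactate dehydrogenase subunit typical of heart, rose by 2.38 ± 0.33 (0.00184), with levels of 0.15, -0.08 and 0.77 in fibrosis, against -2.39, -1.62 and -2.30 in normal liver. Both genes stood apart from normal liver on every fibrosis array.

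The falls in that list each hung on several arrays. Pc (pyruvate carboxylase, the first step from pyruvate) changed by -1.11 ± 0.28 (SE, limma adjusted p = 0.0264). Mpc2, a subunit of the mitochondrial pyruvate carrier, changed by -1.38 ± 0.36 (0.0328), and Ldha, the lactate dehydrogenase subunit typical of liver and muscle, fell by 1.00 (SE 0.28, limma adjusted p = 0.0398). Each of these calls was lost when any 1 of 5 arrays was left out: fibrosis array 1, all 3 normal arrays and, for Pc, fibrosis array 2 (-1.20 to -0.94, adjusted p from 0.0547 to 0.118) or, for Mpc2 (-1.58 to -0.75, 0.0544 to 0.276) and Ldha (-1.09 to -0.83, 0.0673 to 0.163), fibrosis array 3. All 3 were also lost with quantile normalization, cyclic loess and E1A scaling.

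In hepatic glycolysis and its switches, 3 of 11 genes rose and 2 fell, with a median of 0.17. The 3 that rose are forms found mainly outside hepatocytes: Slc2a1, the glucose transporter GLUT1, by 1.33 ± 0.32 (SE, limma adjusted p = 0.0226), Pkm, the muscle-type pyruvate kinase, by 1.27 ± 0.28 (0.0167), and Hk1, a hexokinase, by 1.20 ± 0.32 (0.0349). Their liver counterparts Slc2a2 and Pklr are described above. The calls were lost without any 1 normal array for Slc2a1 (1.22 to 1.40, adjusted p from 0.0714 to 0.0843), without normal array 2 or 3 for Pkm (1.22 and 1.14, up to 0.0896), and without any array but fibrosis array 3 for Hk1 (0.95 to 1.27, up to 0.136). With the array median, Slc2a1 (0.97, 0.0624) and Hk1 (0.84, 0.0709) were not called.

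Pdk4, a kinase that keeps pyruvate out of the citric acid cycle in fasting, had levels of -4.39, -5.13 and -4.39 in fibrosis, against -3.60, -2.78 and -2.51 in normal liver. Its change was -1.67 ± 0.36 (SE, limma adjusted p = 0.0141), a call lost without normal array 2 (-1.58, 0.0615) or 3 (-1.44, 0.0685) and with E1A scaling (-1.36, 0.0744). Pdk2, a related kinase, changed by -0.78 ± 0.23 (0.0452) and lost its call without any array but fibrosis array 2 (-0.83 to -0.72, adjusted p up to 0.153) and with quantile normalization, cyclic loess and E1A scaling.

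In glycogen metabolism, 2 of 19 tested genes rose and 6 fell, with a median of -0.29. Pygb, the brain form of glycogen phosphorylase, had levels of -0.44, -0.49 and -0.83 in fibrosis, against -2.27, -2.42 and -2.81 in normal liver. It rose by 1.91 ± 0.26 (SE, limma adjusted p = 0.00164), or 3.76-fold, while the liver form Pygl did not pass. Ppp1r3d, another glycogen-targeting subunit of protein phosphatase 1, rose by 1.00 ± 0.26 (0.0296), in the direction opposite to Ppp1r3c. Its call was lost without fibrosis array 1 (1.04), normal array 1 or normal array 3 (0.86 to 0.96, adjusted p up to 0.129) with the array median (0.64, 0.101) and with no filter on dim probes (0.0681).

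Among the falls were Nhlrc1, the ubiquitin ligase malin of glycogen quality control (-1.89 ± 0.42, limma adjusted p = 0.0161), and Pgm1, the phosphoglucomutase that links glycogen to glucose-6-phosphate (-1.22 ± 0.35, 0.0419). Nhlrc1 lost its call without normal array 2 (-1.88, 0.0582) or 3 (-1.67, 0.0746) and with E1A scaling (-1.58, 0.0656). Pgm1 lost its call without any array but fibrosis array 3 (-1.37 to -0.87, adjusted p up to 0.166), with cyclic loess (-1.13, 0.0625) and with E1A scaling (-0.92, 0.247).

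In the entry of fructose, galactose, glycerol and sorbitol, 1 of 11 genes rose and 4 fell, with a median of -0.80. Akr1b1, the aldose reductase that turns glucose into sorbitol, had levels of -0.77, -0.93 and -1.39 in fibrosis, against -2.75, -2.75 and -3.20 in normal liver. It rose by 1.87 ± 0.27 (SE, limma adjusted p = 0.00241). Sord, which turns sorbitol into fructose, changed by -1.16 ± 0.28 (0.0227), a call lost without fibrosis array 1 or any 1 normal array (-1.20 to -1.08, up to 0.107) and under quantile, loess and E1A scaling.

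Gpd1, which turns glycerol phosphate into a precursor of glucose, had levels of 2.19, 2.07 and 2.72 in fibrosis, against 3.81, 3.56 and 3.62 in normal liver. It changed by -1.33 ± 0.26 (SE, limma adjusted p = 0.00951) and was called whichever array was left out, yet lost its call under quantile (-0.94, 0.0633), loess (-0.92, 0.0592) and E1A scaling (-1.03, 0.0823). Gk, the glycerol kinase, changed by -0.94 ± 0.24 (0.0268), lost without any 1 normal array (-0.99 to -0.90, up to 0.117) with all 3 of these scalings and with marked spots left out (-0.73, 0.169).

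Among hormone and transcriptional regulators, 2 of 28 tested genes rose and 5 fell, with a median of -0.52. Cebpa, a transcription factor of hepatocytes that acts on Pck1 and G6pc1, had levels of -4.51, -4.85 and -4.21 in fibrosis, against -2.40, -2.63 and -2.89 in normal liver, a change of -1.89 ± 0.27 (SE, limma adjusted p = 0.00222). Adra1b, the adrenergic receptor through which catecholamines drive glycogen breakdown in rat liver, was at 0.24, 0.28 and 0.14 in fibrosis, against 1.92, 1.89 and 2.04 in normal liver. Its change was -1.73 ± 0.22 (0.00122), and both groups were tight, with an SD of 0.07 in fibrosis and 0.08 in normal liver.

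Ppargc1a, a coactivator that fasting induces and that raises gluconeogenic transcription, rose by 1.50 ± 0.32 (SE, limma adjusted p = 0.0130), a call lost without normal array 3 (1.20, 0.0524) and with normexp background correction (0.74, 0.0565). Fgf21, a fasting hormone made by the liver, differed by -2.18 ± 0.61 (0.0397), a call lost without any array but fibrosis array 3 (-2.47 to -1.71, up to 0.146). That call was also lost with E1A scaling (-1.88, limma adjusted p = 0.0629) and with no filter on dim probes (0.066).

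**Figure D3:**
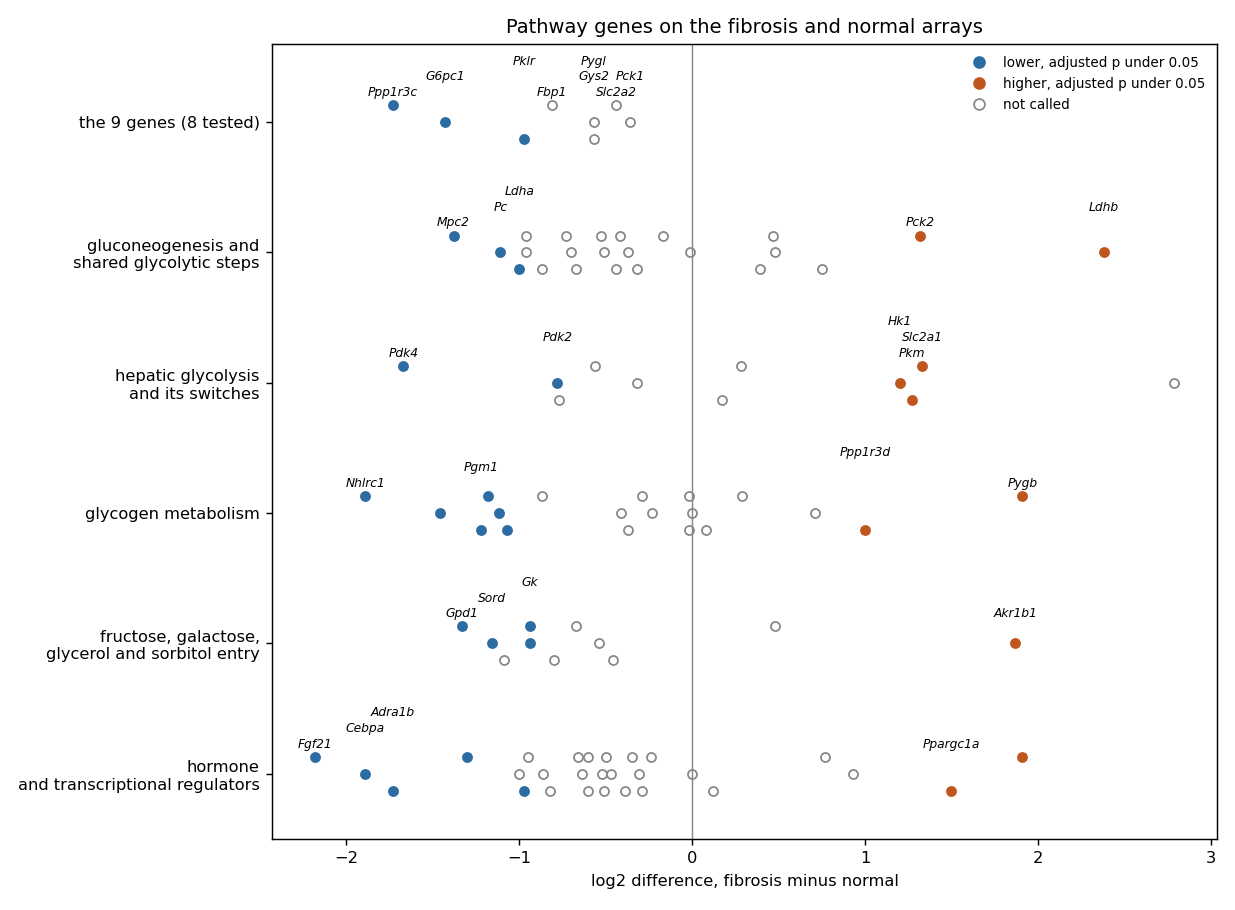
Log2 difference, fibrosis minus normal (horizontal axis), of the 8 tested genes (top) and of the 92 other pathway genes in 5 lists; filled points were called lower (blue) or higher (orange) at an adjusted p under 0.05, open points were not called, and small vertical offsets only separate points. The top group lies wholly below 0, whereas each other list holds called genes on both sides.

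Of the other pathway genes named here, Ldhb, Pygb, Akr1b1, Cebpa and Adra1b were called in every alternative that gave them a value, and they were the only ones of them called with the slide row as a block. Ldhb, Pygb and Akr1b1 had no value with marked spots left out. With arrays set against hepatocyte markers, Pck2 (2.06), Ldhb (3.13), Pygb (2.66), Akr1b1 (2.62), Slc2a1 (2.07), Pkm (2.02), Hk1 (1.95), Ppp1r3d (1.74) and Ppargc1a (2.25) were called higher. That scale subtracts 1 value per array, lower in fibrosis than in normal liver, so it raised every difference and rises could only grow. Of all probes 30.9% were called higher on it and 1.41% lower, against 12.4% and 6.79% as reported. Of the other pathway genes named here that fell, Cebpa (-1.14, adjusted p = 0.0302) and Adra1b (-0.98, 0.0189) were called lower on that scale and the others were not.

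Other genes with a profile like that of each tested member were found by the root mean square difference between centred levels over the 6 arrays, among 10863 genes. G6pc1 was nearest to L3hypdh (0.13) and Spast (0.15), and Ppp1r3c to Mcrip2 (0.13) and Nat8b (0.18). Fbp1 was near F12 (0.07), and Pklr was nearest to Gnmt (0.08) and Serpina4 (0.09). For Pck1 they were Oas1b (0.06) and Shoc2 (0.07), for Slc2a2 Mrps30 and Pfdn2 (0.04 each), for Gys2 Adap2 and Ffar4 (0.09 each), and for Pygl Myl7 (0.04) and Maip1 (0.05). These profiles share the 6 arrays and the same 2 groups, so the measure describes these arrays only.

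**Figure D4:**
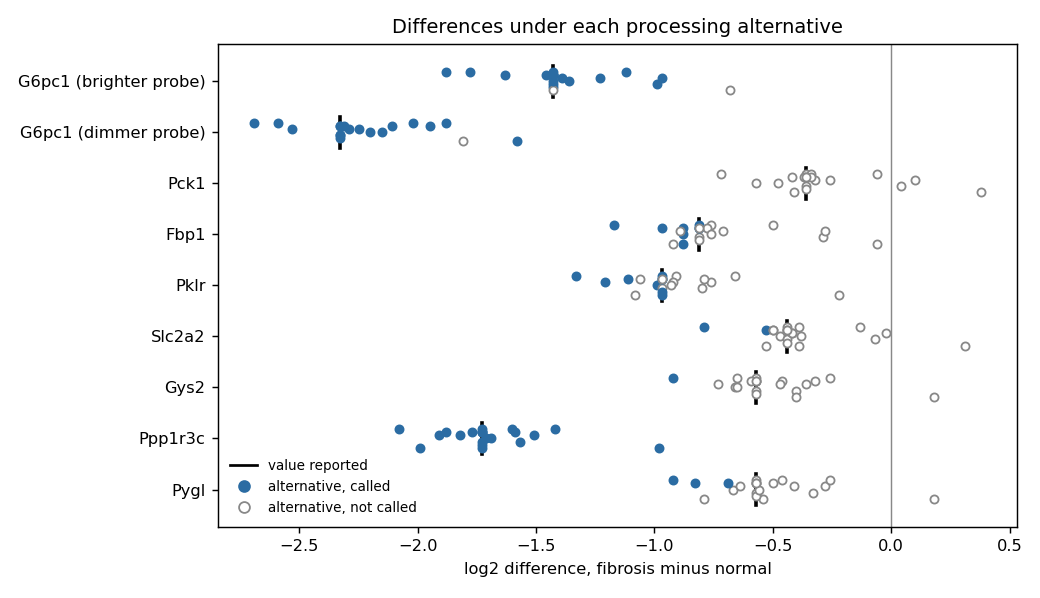
Log2 difference, fibrosis minus normal (horizontal axis), of the 9 tested probes under each alternative (points, filled where called) beside the value reported (black bar); vertical offsets only separate points. Ppp1r3c is filled throughout, and Pck1 is open throughout and crosses 0.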

How the data were processed

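Total RNA from liver blocks was labelled with Cy3 and hybridised to 6 one-colour arrays, 1 per rat, per the labels. The deposited files give linear spot intensities from Agilent Feature Extraction 11.5.1.1, with background subtracted and trends across the array removed, and no normalization between arrays is recorded, per the file headers. Both groups shared 1 slide and 1 scan.

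Here control spots were dropped, marked spots (non-uniform or population outliers) were kept, and log2 of the processed signal minus the 75th percentile of its array was averaged over the spots of a probe. No spot was saturated. RefSeq accessions, without versions, were matched to the GRCr8 gene table and named 18355 of 30367 probes. A probe was tested if at least 0.5 of its spots were well above background on every array of at least 1 group. Groups were compared with limma 3.58.1 (lmFit, eBayes) under R 4.3.3, and p-values of all tested probes were adjusted together (Benjamini-Hochberg), after a check on simulated data. A gene with several probes was represented by the one of highest mean.

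The named genes are the 9 members and, in each pathway list, up to 3 called genes with the largest increase and 3 with the largest decrease (filled up by smallest p where fewer than 2 were called), plus the 2 nearest profiles of each tested member. Some genes that this rule picks are not reported here. The members and lists were chosen with earlier results of these data known. Alternatives covered scaling, background (normexp with offset 50 on median signals, since mean signals are not in the files used here), filters, probe choice, weights, the slide row and each array left out. Replicate numbers follow record order and serve as names. The number of arrays limits precision.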

Additional observations from a re-analysis of the deposited data

How the results depend on the processing

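The count of members that fell (3) was 7 with the array median, 6 with array weights, 1 with the slide row as a block and 1 with scaling to hepatocyte markers, an alternative added after seeing the data, and 2 to 4 with 1 array left out. No member rose in any alternative. With marked spots left out it was again 3, but these were Fbp1, Pklr and Ppp1r3c, since G6pc1, Pck1 and Gys2 then had no value. The difference of Pck1 changed sign with quantile normalization (0.04), cyclic loess (0.10) and hepatocyte marker scaling (0.38), and that last scaling also turned Slc2a2 (0.31), Gys2 (0.18) and Pygl (0.18). Among other pathway genes, the 20 falls became 8 with marked spots left out, 12 with quantile normalization, 33 with the array median, 9 with cyclic loess, 2 with E1A scaling, 9 with no filter on dim probes, 46 with array weights, 2 with the slide row as a block, 4 at an adjusted p under 0.01 and 2 with hepatocyte marker scaling, and 4 to 28 with 1 array left out. The 10 rises became 4 with marked spots left out, 3 with the slide row, 5 at the stricter threshold and 20 with hepatocyte marker scaling, and 6 (without normal array 3) to 10 with 1 array left out. Over all probes, the 1339 falls became 610 with marked spots left out, 3884 with the array median, 357 with E1A scaling, 799 with no filter, 3580 with array weights, 178 with the slide row, 385 at the stricter threshold and 279 with hepatocyte marker scaling, and 450 to 1620 with 1 array left out (713 when normal array 1 was dropped, 519 for normal array 2 and 450 for normal array 3). The 2439 rises became 1020 with the slide row, 1422 at the stricter threshold and 6099 with hepatocyte marker scaling, and 1514 (without normal array 3) to 2851 with 1 array left out. Of all called probes 24.1% were lower with marked spots left out, 49.6% with array weights, 14.9% with the slide row and 4.37% with hepatocyte marker scaling, against 35.4% as reported. The array median, E1A and hepatocyte marker scalings each subtract 1 value per array, so each shifts every difference by the same amount. The stricter threshold can only remove calls. The cause of the other moves was not tested. Of 674 values of members and named genes under the alternatives, 492 kept their direction and side of the threshold, 162 lost a call, 14 gained one and 6 changed sign. No paired analysis was possible because the titles of the 2 groups share only 1 number.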
